A study of Homo sapiens with 4 samples.

Results

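The cytoplasmic ribosomal protein genes were examined in PK-1, a human pancreatic cancer cell line, as 77 of the 53826 entities (gene entries) measured by mRNA sequencing. They were chosen by symbol alone, as RPL or RPS followed by a number with an optional A or X, together with RPLP0, RPLP1, RPLP2 and RPSA. Of these, 46 encode proteins of the large subunit and 31 encode proteins of the small subunit. There were 4 libraries, 1 per condition. Stable SPRR1A-overexpressing cells had been infected with a pMXs retrovirus carrying SPRR1A with a FLAG tag, and stable DsRed cells with the same vector carrying DsRed. Transient SPRR1A cells had been transfected with a pCAG plasmid carrying SPRR1A with a FLAG tag, and transient GFP cells with pCAG carrying GFP, and RNA was taken 48 h after transfection. SPRR1A is an envelope protein of squamous epithelium, and the study asked what its overexpression does to pancreatic cancer cells. The share of cells that carried each vector is not given in the sources used here. The 4 conditions differ in vector, delivery and reporter at once, so a difference between the stable and transient models cannot be told apart from a difference between vectors, carried genes or time in culture.

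Values are log2 of TPM (an abundance scaled to a fixed total per library and corrected for transcript length), with a floor at 0 for a TPM of 1 or less. The depth in reads is unknown. With 1 library per condition no difference had a replicate check, so sizes are given without a test. The SPRR1A level was 10.93 against 0.75 in the stable SPRR1A and DsRed libraries and 16.60 against 3.56 in the transient SPRR1A and GFP libraries, in the direction that the labels give. SPRR1A alone took 9.92% of all TPM in transient SPRR1A cells but 0.196% in stable SPRR1A cells, and since TPM is a share, this lowers the value of each other gene there. Leaving SPRR1A out of the total raised the log2 value of each gene in transient SPRR1A cells by 0.15 relative to transient GFP and to stable SPRR1A cells, and directions below are given with this scale where they turn. Of 8 epithelial markers, 7 were above 0 in all 4 libraries and MUC1 was at 0 in some, while the endothelial markers (VWF, CDH5, PECAM1), the islet markers (GCG, INS) and the leukocyte markers PTPRC and CD3E were at 0 in all 4. Of the other leukocyte markers CD68 was above 0 in all libraries and CD79A in some (summed TPM of the list 15.9 to 35.7), and COL1A1 of 5 fibroblast markers (3.88 to 6.14) and PRSS1 of 3 acinar markers (1.56 to 3.62) were above 0 in all. Fewer cells of a kind and less RNA per cell cannot be told apart in such bulk libraries.

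A ribosome joins a small subunit, which reads the mRNA, to a large subunit, which forms the peptide bonds. Each subunit is built in the nucleolus from ribosomal RNA and a fixed set of proteins, most of them present as a single copy, and growing cancer cells devote much of their mRNA to these proteins. The mRNAs of ribosomal proteins typically begin with a terminal oligopyrimidine (TOP) stretch, a C followed by further C or T bases at the cap, through which mTOR signalling and LARP1 control their translation. TOP mRNAs are therefore regulated largely at translation, and mRNA levels such as those measured here need not follow protein output.

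The TOP stretch was visible at the annotated starts. RefSeq start windows on GRCh38.p14 were found for 62 of the 77 genes, and 46 of the 62 (74.2%) had C at the annotated first base within a run of at least 5 pyrimidines counted from that base, against 1404 of 27305 genes (5.14%) in the whole table. The run was looked for on the transcribed strand only, and where a gene had several annotated starts the longest run was taken. Its median length in the 62 genes was 7 bases, and the longest had 19, in RPL39. The windows below run from 10 bases before the annotated start to 20 bases from it, 5′ to 3′ on the transcribed strand, with the pyrimidine run in capitals. They were chosen as members to which the results return: RPL35, RPL18, RPLP1, RPL31, RPL36A, RPL39 and RPS6, followed by RPL3 with a shorter run and RPL4 with none.
RPL35 (chr9:124861938-124861967, minus strand): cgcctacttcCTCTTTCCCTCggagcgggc
RPL18 (chr19:48619159-48619188, minus strand): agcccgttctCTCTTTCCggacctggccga
RPLP1 (chr15:69452808-69452837, plus strand): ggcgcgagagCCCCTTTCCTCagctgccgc
RPL31 (chr2:101002279-101002308, plus strand): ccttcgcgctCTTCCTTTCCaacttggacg
RPL36A (chrX:101391001-101391030, plus strand): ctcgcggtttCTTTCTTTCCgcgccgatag
RPL39 (chrX:119791611-119791640, minus strand): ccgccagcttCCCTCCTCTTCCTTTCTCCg
RPS6 (chr9:19380217-19380246, minus strand): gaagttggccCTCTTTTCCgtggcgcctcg
RPL3 (chr22:39319604-39319633, minus strand): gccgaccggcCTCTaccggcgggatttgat
RPL4 (chr15:66504836-66504865, minus strand): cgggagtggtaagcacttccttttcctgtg
RPL35 and RPLP1 both carry the run. Their log2 differences, in this order, were -0.55 and 0.15 in transient GFP minus stable DsRed cells. In transient SPRR1A minus stable SPRR1A cells they were -0.55 and -0.01. The part of the run in these differences was not tested. A missing run means only that these letters are not at an annotated first base, which can lie near or far from the used one. The RPL4 window has pyrimidines further in. For RPS29, counted without a run, the window (chr14:49598691-49598720) lies outside the reference transcript taken for length below (chr14:49583577-49586380).

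All 77 genes were above the floor, with a TPM at or above 5, in each of the 4 libraries. Together they held 16.6% and 17.2% of all TPM in the stable SPRR1A and DsRed libraries and 14.4% and 15.3% in the transient SPRR1A and GFP libraries. With SPRR1A left out of the total the share in transient SPRR1A cells was 15.9%, so it then lay above that of transient GFP cells, and both transient libraries stayed below both stable ones. The median level of the 77 genes was 10.90 and 10.97 in the stable SPRR1A and DsRed libraries and 10.70 and 10.78 in the transient SPRR1A and GFP libraries, on the log2 TPM scale. The family sat near the top of the transcriptome, with 53 to 55 of its genes among the 100 highest entities of each library.

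The genes were not equally abundant, although most of the proteins are used in equal number. The highest exceeded the lowest by a TPM ratio of 32.7 and 32.1 in the stable SPRR1A and DsRed libraries and of 37.7 and 51.0 in the transient SPRR1A and GFP libraries, while 55 to 58 of the 77 lay within 2-fold of the median of their library. RPS2, a protein of the small subunit, was at 12.98, 13.09, 12.93 and 13.04 (log2 TPM, here and below in the order stable SPRR1A, stable DsRed, transient SPRR1A, transient GFP). RPLP1, a protein of the stalk that recruits elongation factors to the large subunit, was at 12.94, 12.90, 12.93 and 13.05. These 2 stood apart from the rest, since the next by mean level, RPL23, was at 12.25, 12.35, 11.89 and 11.95. RPL7A of the large subunit was at 12.11, 12.21, 11.86 and 11.97, and RPL41, the shortest of the ribosomal proteins, at 12.10, 12.10, 11.87 and 12.01. Within each stable library the 5 highest genes held 18.1% and 18.3% of the TPM of the family. These include RPL35 (12.22 and 12.33 in stable SPRR1A and DsRed cells) and not RPL41.

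At the other end were RPL28 with 7.94, 8.08, 7.70 and 7.79, RPL36A with 8.44, 8.64, 8.25 and 7.38, and RPL34 with 8.84, 8.95, 8.49 and 8.61. RPL15, at 8.80, 8.85, 8.59 and 8.75, and RPL22, at 9.08, 9.08, 8.68 and 8.77, completed the 5 lowest by mean level. The order of these genes was not the same in all libraries, since RPL28 was the lowest in 3 and RPL36A in transient GFP cells. Level is divided by transcript length in TPM, and the lengths of the longer members depend on which transcript is taken. The MANE Select transcript of GENCODE 44 (1 reference transcript per gene) has 4209 nt for RPL28, 2155 nt for RPL15, 2061 nt for RPL22, 761 nt for RPL36A and 546 nt for RPL34, against a median of 785 nt and a range of 295 to 7573 nt over the 77 genes. Across the 77 genes the mean level and this length had r = -0.33 and Spearman rho = -0.20, as a description over genes that share the same libraries. The transcript lengths that the authors used are not given in the sources used here.

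**Figure D1:**
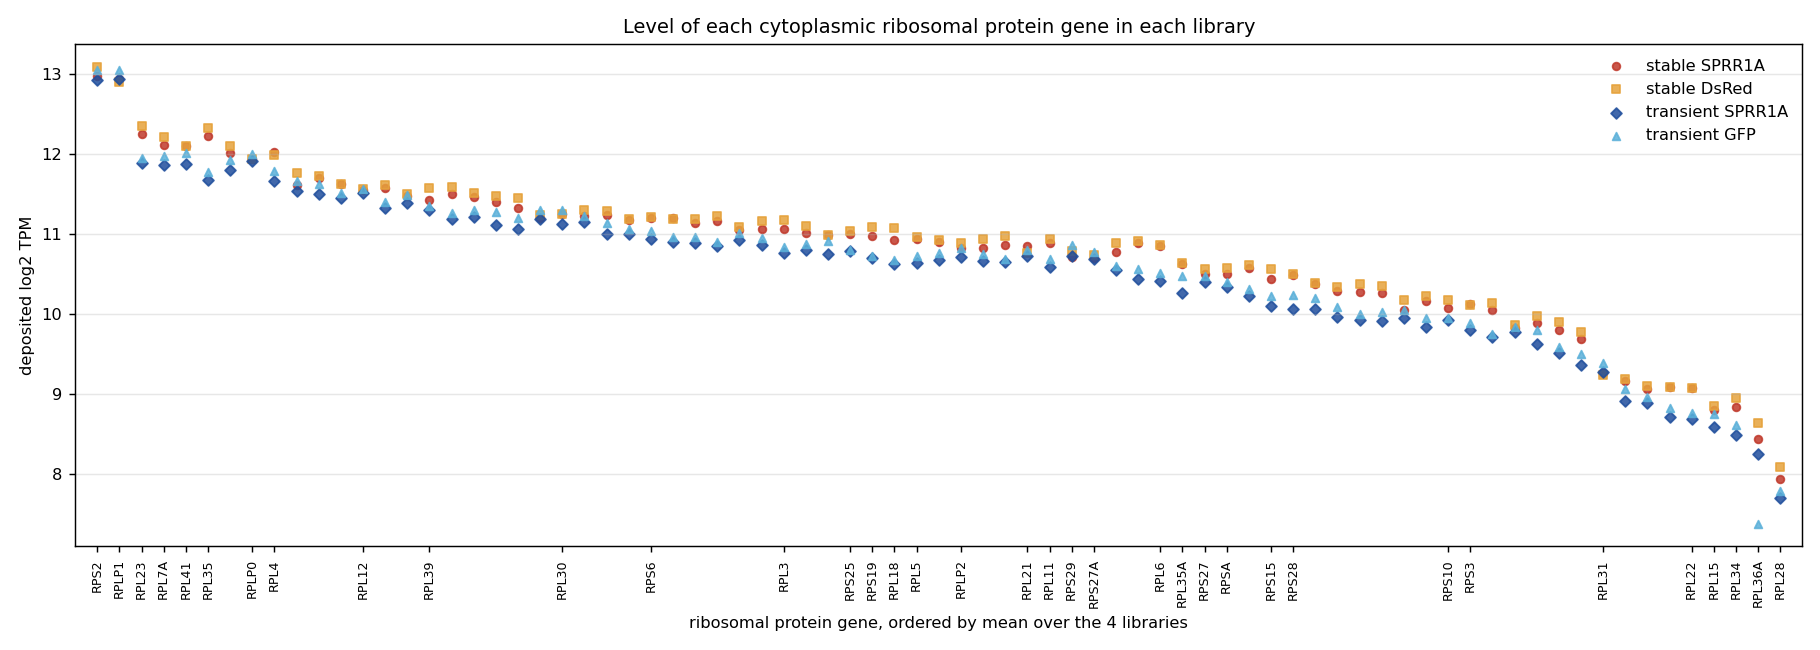
Deposited log2 TPM (vertical axis) of each of the 77 ribosomal protein genes (horizontal axis, ordered by mean, with some of them labelled), with 1 point per library and no error bars because each condition has 1 library. RPS2 and RPLP1 stand at 12.90 to 13.09, and RPL36A in transient GFP cells (7.38) lies below its 3 other values. Transient SPRR1A (diamonds) is the lowest of the 4 libraries for most genes as deposited, where the SPRR1A share of TPM lowers the value of each other gene.

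Both subunits had like levels. The median of the large subunit genes was 10.89, 10.94, 10.65 and 10.74, and that of the small subunit genes 10.99, 11.04, 10.75 and 10.87. Summed over the genes, the large subunit had a TPM of 1.52, 1.49, 1.48 and 1.48 times that of the small subunit. This ratio changed little between the libraries, and with 46 genes against 31 it follows the number of genes in each subunit.

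Among genes taken by role, the other proteins of the stalk were RPLP0, its base, at 11.93, 11.94, 11.91 and 11.99, and RPLP2, the partner of RPLP1, at 10.82, 10.89, 10.72 and 10.82. RPL5 (10.94, 10.97, 10.63 and 10.73) and RPL11 (10.89, 10.94, 10.59 and 10.69) together bind the smallest RNA of the large subunit and, when free, the ubiquitin ligase MDM2. RPL5 and RPL11 lay close to the median of the family in all 4 libraries and close to each other. RPL3, which lies near the peptidyl transferase centre, was at 11.06, 11.18, 10.76 and 10.84. RPL4 (12.03, 11.98, 11.66 and 11.78) and RPL39 (11.42, 11.57, 11.29 and 11.35) line the tunnel through which the new peptide leaves. RPL3, RPL4 and RPL39 were lower in both transient libraries than in both stable ones, and with SPRR1A left out this no longer held for RPL39.

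In the small subunit, RPS6, which is phosphorylated downstream of mTOR, was at 11.20, 11.22, 10.94 and 11.03. RPS19, the gene most often mutated in Diamond-Blackfan anaemia, was at 10.97, 11.08, 10.70 and 10.73. RPS3, at the mRNA entry, was at 10.12, 10.11, 9.80 and 9.88. All 3 were lower in both transient than in both stable libraries. RPSA, also known as the laminin receptor, was at 10.51, 10.58, 10.33 and 10.41, RPS27 at 10.50, 10.56, 10.40 and 10.48, and RPS27A, made as a fusion with ubiquitin, at 10.69, 10.74, 10.68 and 10.78. For RPS27A the stable and transient values overlapped.

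In the stable model, SPRR1A overexpression went with little difference in these genes. The median of stable SPRR1A minus stable DsRed cells was -0.05 (SD over genes 0.05), and the range was -0.20 to 0.10. Of the 77 genes 69 were lower in stable SPRR1A cells, 68 with SPRR1A left out of the total and 76 when the difference was centred on the median of all entities with a TPM at or above 5. Of those entities 35.6% were lower as deposited. None was past 2-fold, where 0.234% of all entities were, and none was lower or higher by more than 0.25, against 3.10% and 12.4% of the 9835 entities with a TPM at or above 5 in both libraries. The median of those entities was 0.06, and that of the 54 other entities whose mean level reached the lower quartile of the family was -0.01. The lowest differences were those of RPL36A (-0.20), RPL18 (-0.15; 10.93 against 11.08) and RPL39 (-0.15). The highest were RPL21 (0.10; 10.86 against 10.76), RPL4 (0.05) and RPLP1 (0.04), and of these 3 only RPL21 was still above 0 after centring.

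In the transient model most of the family differed by a small amount, in a direction that depends on the scale. As deposited, the median of transient SPRR1A minus transient GFP cells was -0.09 and 76 of the 77 genes were lower in transient SPRR1A cells, as were 94.1% of the 10154 entities counted, whereas with SPRR1A left out of the total the median was 0.06 with 70 genes higher, and after centring it was 0.09 with 76 higher. All entities with a TPM at or above 5 in both libraries had a median of -0.18 as deposited and -0.03 with SPRR1A left out. The 54 other abundant entities had -0.13 and 0.02, nearer to the family. Relative to all entities and to the abundant ones the family was thus slightly higher, and relative to the deposited total slightly lower. None of the 77 genes was past 2-fold as deposited (0.227% of all entities were), none was lower by more than 0.25 (25.8% of 10154 entities), and 1 was higher by more than 0.25 (0.522%), which was RPL36A with 0.87. The most negative values as deposited were those of RPL35A (-0.21; levels 10.62, 10.63, 10.27 and 10.47), RPS28 (-0.17; 10.48, 10.50, 10.06 and 10.23) and RPL30 (-0.17; 11.25, 11.25, 11.13 and 11.30). These 3 were also the lowest relative to the family. Besides RPL36A, the least negative were RPS25 (-0.01; 11.01, 11.04, 10.78 and 10.79) and RPS10 (-0.02; 10.08, 10.18, 9.93 and 9.95), both of the small subunit and both above 0 with SPRR1A left out.

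Lower values in SPRR1A than in control cells of both models were seen for 68 of the 77 genes as deposited, against 32.3% of the 9658 entities with a TPM at or above 5 in all 4 libraries, but for 6 genes with SPRR1A left out of the total and for 1 gene after centring each library. On those scales the shares of entities were 17.8% and 20.1%, so that the members were above the background as deposited and under it otherwise. The 2 models, which share no library, ordered the genes differently: the differences had r = -0.36 and rho = -0.21 over 77 genes, and r = -0.19 and rho = -0.18 over the 76 genes other than RPL36A. These weak values are a description over genes of 4 libraries.

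**Figure D2:**
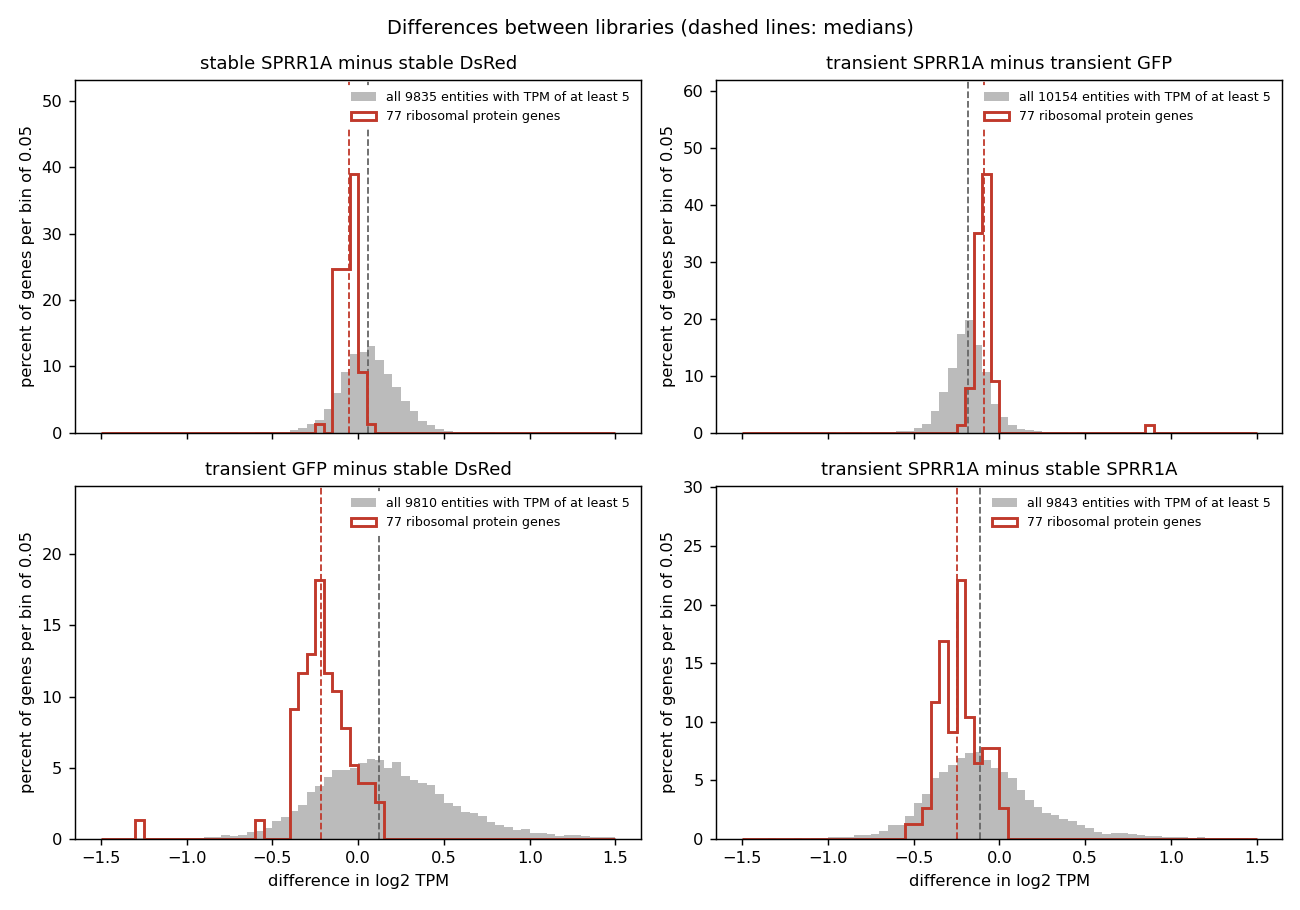
Histograms of the difference in log2 TPM (horizontal axis, bins of 0.05) for the 77 ribosomal protein genes (red outline) and for all entities with a TPM at or above 5 in both libraries (grey), as percent of genes (vertical axis), with dashed lines at the medians, in the 4 comparisons. The family forms a narrow peak with medians of -0.05, -0.09, -0.21 and -0.25 as deposited, of which the transient SPRR1A minus transient GFP value turns to 0.06 when SPRR1A is left out of the total; the isolated bars at 0.87 and -1.26 are RPL36A.

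As deposited, the larger difference was between the transient and the stable model. It was measured in a pair of control libraries (transient GFP minus stable DsRed) and in a pair of SPRR1A libraries (transient SPRR1A minus stable SPRR1A), which have no library in common. The median of the 77 genes was -0.21 (SD 0.18) in the control pair and -0.25 (SD 0.12) in the SPRR1A pair. Both stayed below 0 under the other scales, at -0.34 in the control pair after centring and at -0.10 and -0.13 in the SPRR1A pair with SPRR1A left out and after centring. Within the stable and transient models the medians were -0.05 and 0.06 with SPRR1A left out, and -0.11 and 0.09 after centring. On these scales the larger size was thus clear only in the control pair. All entities with a TPM at or above 5 had medians of 0.12 and -0.11, and the 54 other abundant entities -0.08 and -0.20. In the control pair the family thus lay on the other side of 0 from the median of all entities, and on the same side as the other abundant ones.

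In the control pair 69 of the 77 genes were lower in transient cells, against 36.2% of entities with a TPM at or above 5. Of these genes 28 were lower by more than 0.25, against 13.5% of entities, while none was higher by that size, against 37.0%. In the SPRR1A pair 75 were lower, against 65.0% of entities. Of these genes 33 were lower by more than 0.25, against 30.7%, and none was higher by that size, against 13.8%. With SPRR1A left out the 75 became 58 and the 33 became 4, and after centring they were 62 and 7. The shares of entities above hold as deposited only, and none was counted on these scales. Of the 54 other abundant entities 34 were lower with SPRR1A left out and 12 by more than 0.25. After centring 39 and 15 of them were. In the SPRR1A pair the number of members past this size thus rests on the scale. Past 2-fold were RPL36A in the control pair (1.92% of all entities) and no gene in the SPRR1A pair (0.903%). Lower by more than 0.25 in both pairs were 24 genes, against 11.8% of entities, but on the other scales the count was near or under the background, with 4 genes (5.19%, against 8.15% of entities) when SPRR1A was left out and 14 (18.2%, against 15.7%) after centring. Both stable libraries were above both transient libraries for 62 of the 77 genes, against 31.6% of the 9658 entities, for 58 genes with SPRR1A left out (28.6% of entities) and for 66 after centring (42.5%). This last count was thus above the background share on each of these scales.

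The subunits did not separate here. The median was -0.21 for both the large and the small subunit genes in the control pair, and -0.23 and -0.25 in the SPRR1A pair. Genes with and without the TOP run at the annotated start had medians of -0.23 (46 genes) and -0.21 (16 genes) in the control pair, and of -0.23 and -0.26 in the SPRR1A pair.

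RPL35, which sits at the exit of the peptide tunnel, had the widest range after RPL36A, with log2 TPM of 12.22, 12.33, 11.67 and 11.78. Both transient values were below both stable ones, with differences of -0.55 in the control pair and -0.55 in the SPRR1A pair. RPL6 (10.85, 10.87, 10.41 and 10.51) differed by -0.36 and -0.43, RPL23 by -0.39 and -0.36 and RPL18 (10.93, 11.08, 10.62 and 10.68) by -0.40 and -0.31. All 3 belong to the large subunit and were lower in both transient libraries. RPL34 (-0.34 and -0.35) and, in the small subunit, RPS15 (10.44, 10.57, 10.10 and 10.22; -0.35 and -0.34) were also among the 5 genes with the widest range.

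As deposited, a few members did not share this difference. In the SPRR1A pair 19 members were higher in transient cells with SPRR1A left out, and 15 after centring, against 20 and 15 of the 54 other abundant entities. RPLP1 differed by 0.15 in the control pair and -0.01 in the SPRR1A pair, and RPLP0 by 0.06 and -0.02, whereas RPLP2, of the same stalk, differed by -0.07 and -0.10. RPL31 (9.27, 9.24, 9.27 and 9.38) differed by 0.14 and 0.01. It was the single gene with both transient values above both stable ones as deposited. Of the 9658 entities with a TPM at or above 5 in all 4 libraries, 30.2% were. With SPRR1A left out 7 genes had this order (46.4% of entities), and after centring none had it (33.5%). RPS29 (10.72, 10.79, 10.73 and 10.87) differed by 0.08 and 0.01. RPS2 was also nearly level, with -0.04 and -0.05, so the 2 most abundant members were not among those with large differences. With SPRR1A left out the SPRR1A pair values of these 6 genes lay above 0, and after centring the control pair values of RPLP0 and RPS29 lay below 0.

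The genes were ordered alike in both pairs. Over 77 genes the difference in the control pair and that in the SPRR1A pair had r = 0.63 and rho = 0.81, and over the 76 genes other than RPL36A r = 0.87 and rho = 0.84. The 54 other abundant entities had r = 0.92 and rho = 0.84, so the likeness was not limited to ribosomal protein genes.

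**Figure D3:**
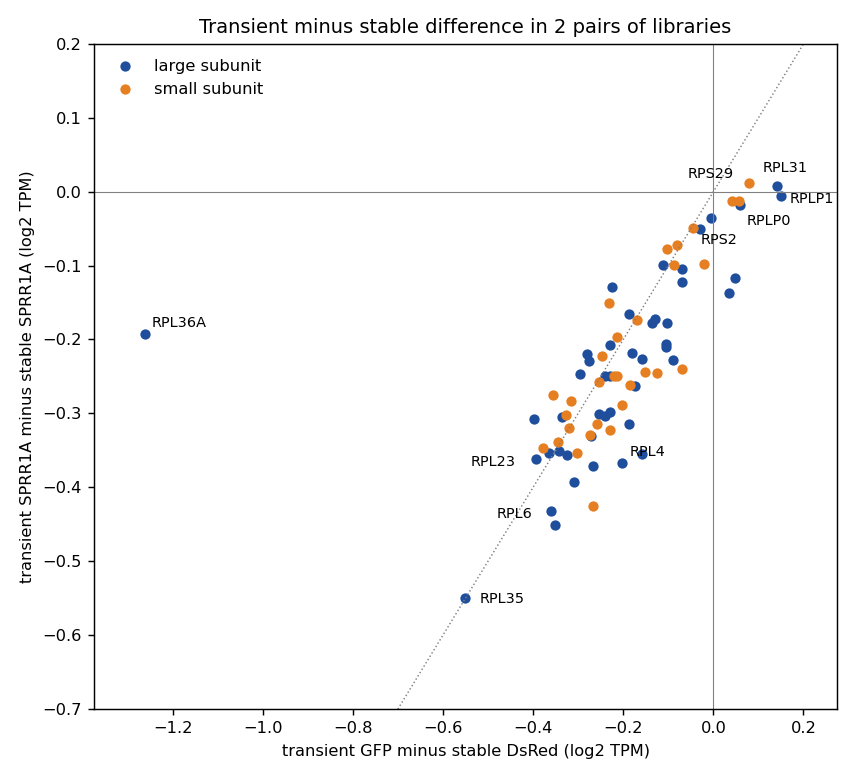
Transient minus stable difference in log2 TPM of each of the 77 genes in the control pair (horizontal axis) and in the SPRR1A pair (vertical axis), coloured by subunit, with the dotted line where both are equal and a narrower range on the vertical axis. Most genes lie below 0 on both axes as deposited, RPL35 is at -0.55 on both, RPLP1, RPL31 and RPS29 lie near or above 0, and RPL36A stands apart at -1.26 and -0.19.

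Transcript length moved with the differences of other genes more than with those of this family in the control pair. Over the 77 family genes the difference and the length had rho = -0.08 there and -0.16 in the SPRR1A pair. In the control pair the median of other entities with a MANE Select transcript went from -0.09 for transcripts under 600 nt (94 entities) through -0.11, -0.03 and 0.12 to 0.25 for those of 4000 nt or more (3216 entities). The ribosomal protein genes had -0.17 under 600 nt (22 genes), -0.23 from 600 to under 1000 nt (22), -0.18 from there to under 2000 nt (16), -0.21 from there to under 4000 nt (13) and -0.28 at 4000 nt or more (4). In the SPRR1A pair they had -0.19, -0.25, -0.23, -0.25 and -0.30 in the same classes, against -0.16, -0.19, -0.18, -0.11 and -0.08 for the others. In the control pair other short transcripts thus also had medians below 0, and the family differed from others of under 1000 nt by less than from all entities. The part of transcript length in the difference was not tested.

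**Figure D4:**
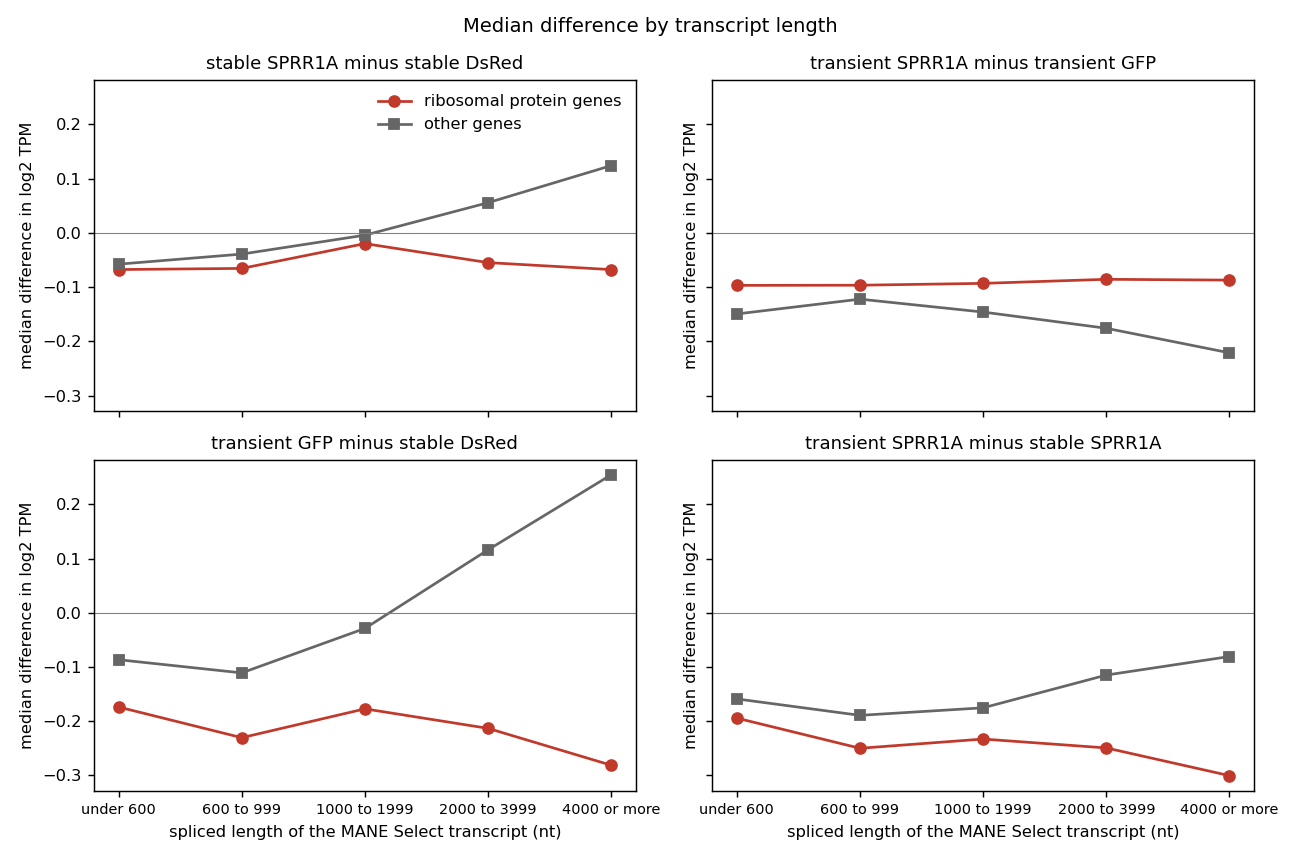
Median difference in log2 TPM (vertical axis) in 5 classes of spliced MANE Select transcript length (horizontal axis) for the ribosomal protein genes (red circles) and other entities with a TPM at or above 5 (grey squares) in the 4 comparisons. In transient GFP minus stable DsRed cells the other entities run from -0.09 to 0.25 while the ribosomal protein genes stay between -0.17 and -0.28; in transient SPRR1A minus transient GFP cells all medians are below 0 as deposited, with the family at 0.06 over all lengths when SPRR1A is left out.

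RPL36A was the exception in the family. It encodes a large subunit protein and lies at chrX:101391011-101396155 (GRCh38). Its TPM was 348 and 400.2 in the stable SPRR1A and DsRed libraries and 304 and 167 in the transient SPRR1A and GFP libraries, so that 3 libraries were near each other and transient GFP cells were low. SPRR1A minus control was -0.20 in stable and 0.87 in transient cells, and transient minus stable was -1.26 in the control pair and -0.19 in the SPRR1A pair. The entity RPL36A-HNRNPH2, a read-through of RPL36A into HNRNPH2, had the opposite pattern, with a TPM of 40.0, 40.5, 36.8 and 205, and was high in transient GFP cells only. The read-through thus held 10.3%, 9.19% and 10.8% of the sum of both in the first 3 libraries and 55.1% in transient GFP cells.

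The sum of RPL36A and its read-through was 388, 441, 341 and 371 TPM. On this sum SPRR1A minus control was -0.18 in stable and -0.12 in transient cells, and transient minus stable was -0.25 in the control pair and -0.19 in the SPRR1A pair, so that as deposited the difference in the transient model changed sign and that in the control pair was near the median of the family. With SPRR1A also left out of the TPM total, the sum differed by 0.03 in the transient model, which is above 0 like the value of RPL36A itself but far smaller. HNRNPH2 itself was at log2 TPM of 5.52, 5.54, 5.41 and 5.44, nearly level.

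Both entities share sequence, so reads in the shared part cannot be told apart. In GENCODE 44 the annotated read-through transcripts match the 761 nt of the RPL36A transcript from its start over 332 nt in one case and 210 nt in another, and both stretches end inside the coding sequence, which spans positions 34 to 351. The 30 bases around each point where they part are shown because only reads across or beyond it tell them apart, with the shared bases in lower case and the differing continuation in capitals.
RPL36A, later point: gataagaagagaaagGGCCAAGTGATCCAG
Read-through, later point: gataagaagagaaagCTACACCAAAATTGC
RPL36A, earlier point: attttccggaaaaagGCTAAAACTACAAAG
Read-through, earlier point: attttccggaaaaagCTACACCAAAATTGC
The read-through transcripts continue into the same sequence at both points. How the aligner assigned reads that fit both entities is not given in the sources used here, and its part in the RPL36A values was not tested.

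**Figure D5:**
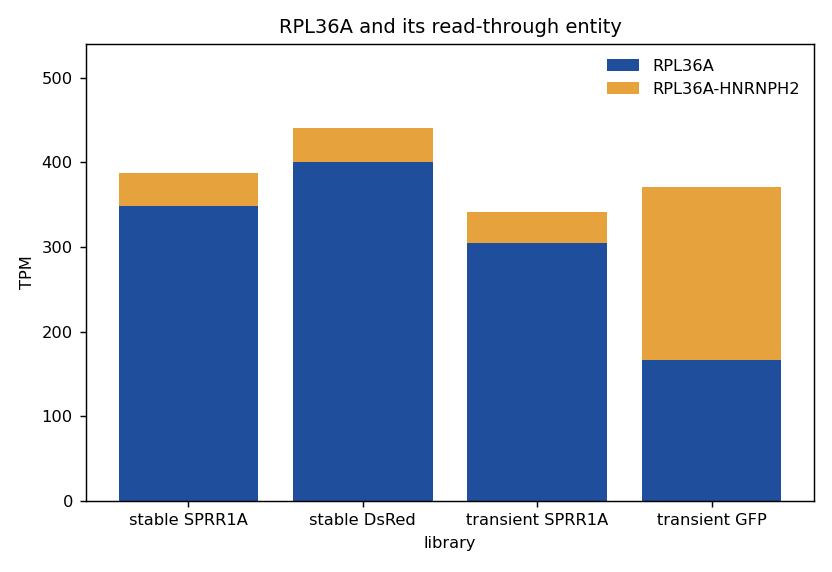
TPM (vertical axis, from 0) of RPL36A (blue) and RPL36A-HNRNPH2 (orange), stacked for each of the 4 libraries, with no error bars because each condition has 1 library. The stacks are 388, 441, 341 and 371 high, and the read-through makes up 55.1% in transient GFP cells against 9.19% to 10.8% in the others.

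The other read-through entities took small and steady shares of the sum with their member. RPS10-NUDT3 held 6.73% to 8.03% and RPL17-C18orf32 1.55% to 1.85%. Unlike RPL36A-HNRNPH2, neither stood apart in transient GFP cells.

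Genes that encode ribosomal proteins but have other names, and the paralogs that can replace a member, were measured beside the family. FAU, whose product includes a small subunit protein, was at 10.08, 10.08, 9.73 and 9.90. It was lower in both transient libraries, as most members were. RPL36AL, whose coding sequence is 89.9% identical to that of RPL36A, was at 8.85, 9.03, 8.83 and 8.97 and did not share the low value of RPL36A in transient GFP cells. RPS27L, the paralog of RPS27, was at 5.67, 5.61, 5.89 and 6.05, higher in both transient libraries. RPL22L1, the paralog of RPL22, was at 5.23, 4.99, 5.03 and 5.08 and RPL39L, 94.8% identical to RPL39 over the coding sequence, at 5.29, 5.11, 5.17 and 5.33. RPL10L was at 0 in all 4 libraries. The paralogs were thus far below their members except for RPL36AL.

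Other genes of ribosome production and translation were taken as lists. The 78 mitochondrial ribosomal protein genes, which serve the separate ribosome of the mitochondrion, had medians of -0.05 in the stable model, -0.21 in the control pair and -0.31 in the SPRR1A pair, and 36 and 51 of them were lower by more than 0.25 in these pairs, with 0 higher by that size. With SPRR1A left out the 51 became 29. Their medians were close to those of the cytoplasmic genes in the stable model and the control pair. In the SPRR1A pair they were lower, at -0.31 against -0.25, and at -0.16 against -0.10 with SPRR1A left out. Of 69 with a window, 6 (8.70%) had the TOP run, and its part in these differences was not tested. The 22 translation factors and other abundant TOP mRNAs, of which 14 of 15 with a window (93.3%) had the run, had 0.05, -0.02 and -0.19, the first of which was -0.01 after centring. Of these 22, 3 were lower and 3 higher by more than 0.25 in the control pair, and 10 lower and 1 higher in the SPRR1A pair, where 2 were lower with SPRR1A left out. EEF1A1, the factor that brings aminoacyl-tRNA to the ribosome, was at 11.94, 11.93, 11.75 and 11.92, EEF2, the translocase, at 10.19, 10.20, 10.15 and 10.28, and RACK1, a small subunit scaffold protein, at 11.40, 11.50, 11.12 and 11.23. As deposited, RACK1 alone of these 3 was lower by more than 0.25 in both pairs.

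The ribosome biogenesis factors, 55 of 56 with a TPM at or above 5, had medians of 0.07 in the stable model, -0.13 in the control pair and -0.30 in the SPRR1A pair. In the control pair 18 were lower and 6 higher by more than 0.25, and in the SPRR1A pair 36 were lower and 3 higher, which became 16 and 5 with SPRR1A left out and 21 and 5 after centring. FBL, the methyltransferase of ribosomal RNA, was at 9.25, 9.42, 8.75 and 8.94, NCL (nucleolin) at 9.61, 9.57, 9.26 and 9.40, NPM1 (nucleophosmin, taken with the translation list) at 11.33, 11.27, 10.93 and 11.02, and UBTF, which drives transcription of ribosomal RNA genes, at 6.02, 6.05, 5.52 and 5.63. These 4 were lower in both transient libraries. Other factors of the biogenesis list were higher in both, among them NOP14 (5.11, 5.18, 5.65 and 5.72), TAF1D (5.94, 5.87, 6.36 and 6.46) and RRN3 (5.51, 5.42, 5.71 and 5.80). MYC, an activator of ribosome production that belongs to none of the lists and was named after its values were seen, was at 7.39, 7.34, 7.71 and 7.82, higher in both transient libraries. In the transient model the medians of the mitochondrial, translation and biogenesis lists were -0.13, -0.13 and -0.12 as deposited and 0.02, 0.02 and 0.04 with SPRR1A left out, so that their direction turned as that of the family did.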

How the data were processed

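The authors sequenced mRNA of 4 PK-1 samples as paired-end reads on a NovaSeq, aligned them to the human transcriptome (hg38) in Strand NGS with default settings, normalized to TPM and deposited log2 TPM values per entity, with a floor at 0. The software version, annotation, transcript lengths and the treatment of reads that fit several genes are not given in the sources used here, and neither is the depth in reads. Libraries were stranded per the labels.

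Differences between deposited log2 values were computed for all 53826 entities, with 1 library per condition and hence no test. Sizes of 1 (2-fold) and 0.25 on the log2 scale were counted, the latter among entities with a TPM at or above 5 in both libraries. Named genes were the 5 highest and 5 lowest members by mean, the 3 largest differences in each direction per comparison, members past 2-fold, the 5 with the widest range and a list by role; single genes of other lists, and any other, were named after their values were seen. The members and lists were chosen with earlier results of these data known. Alternatives were log2(TPM + 1), log2(TPM + 0.1), leaving SPRR1A or the members out of the TPM total, centring on the median of entities with a TPM at or above 5, and leaving out 11 members with paralogs or read-through entities. Transcripts came from GENCODE 44 and start windows from RefSeq (GRCh38.p14). Windows were used for 62 of the 77 members. Some members are not reported here by name. The calculations were tested on simulated data, with Python 3.11.15, numpy 2.4.6, pandas 2.3.3 and matplotlib 3.10.9.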

Additional observations from a re-analysis of the deposited data

Results flagged for a closer look

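As deposited, 9 of the 77 members had opposite directions in the 2 models for SPRR1A minus control, against 65.3% of the 9658 entities with a TPM at or above 5 in all 4 libraries. RPL36A, the single one past 0.25 in either model, had -0.20 in stable and 0.87 in transient cells on the log2 TPM scale. Summed with RPL36A-HNRNPH2 the values were -0.18 and -0.12, and with SPRR1A also left out of the TPM total -0.18 and 0.03, which again have opposite signs. Among other members named here, higher in the stable and lower in the transient model as deposited were RPLP1 (0.0357 and -0.119), RPL4 (0.0461 and -0.118), RPL21 (0.0963 and -0.0756), RPS3 (0.0045 and -0.0876) and RPL31 (0.0241 and -0.11). With SPRR1A left out, the transient values of these 5 genes were higher by 0.15 and lay above 0. Whether any of these values differ between the models was not tested, as there was a single library per condition.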

How the results depend on the processing

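No paired analysis was possible because no condition has a second library and no result comes from a test. Values without replicates were taken as moved when a median changed by more than 0.1, a share by more than 1 percentage point or a count by more than 1.5 times. Of 96 alternative values 73 stayed within this, 20 moved and 3 changed sign. Without SPRR1A in the TPM total, the median of the members in transient SPRR1A minus transient GFP cells was 0.0586 and 1 member was past 2-fold, the median in transient SPRR1A minus stable SPRR1A cells was -0.10 with 4 members past 0.25, the share of TPM in transient SPRR1A cells was 15.9%, 6 members were lower in SPRR1A cells in both models and 4 were lower by more than 0.25 in both transient minus stable pairs. After centring, the corresponding values were 0.0903 and 1, -0.13 and 7, then 1 and 14 for the counts over both models and both pairs, while 1 member was past 0.25 in the stable model and the median in transient GFP minus stable DsRed cells was -0.34 with 54 members past 0.25. The counts over both models or both pairs on other scales, the correlations without RPL36A (0.87 and -0.19) and the RPL36A sum (-0.12 in the transient model, 0.03 there with SPRR1A also left out, and -0.25 in transient GFP minus stable DsRed cells) were added after the data were seen. The shifts without SPRR1A follow from its 9.92% of TPM in 1 library and those after centring from the median subtracted. Without replicates and read depth, the spread between samples is unknown.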

Other observations

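Processed pseudogenes of ribosomal proteins can take reads of their parent genes. Of 1924 entities named as pseudogenes of members, 14 to 19 per library were above 0, and their TPM summed to 0.637% to 0.678% of that of the 77 genes. The highest was RPL13AP5, at log2 TPM of 9.78 and 9.86 in the stable SPRR1A and DsRed libraries and 9.65 and 9.68 in the transient SPRR1A and GFP libraries, beside RPL13A at 11.17, 11.19, 11.00 and 11.06. As deposited, both transient libraries were below both stable ones for each, but with SPRR1A left out RPL13AP5 was at 9.80 in transient SPRR1A cells, above its 9.78 in stable SPRR1A cells.

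The 77 genes lie on 21 chromosomes, with 12 on chromosome 19. As deposited, RPL12 had the narrowest described range, at 11.55, 11.56, 11.51 and 11.56, and was named after its values were seen. Leaving SPRR1A out raised its transient SPRR1A value by 0.15 relative to transient GFP cells, so the rank need not hold on that scale.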
